A study of Mus musculus with 5 samples.

Results

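The genes described here are 31 genes of cholesterol and fatty acid synthesis driven by sterol regulatory element-binding proteins (SREBPs), with regulators of that pathway. They were read from mouse hepatobiliary organoids, and control of each gene by SREBPs was not tested. They were taken by symbol from a list that was chosen with earlier results of these data known. It held 14 enzymes of the sterol pathway, 5 regulators and carriers, and 12 genes of fatty acid and glycerolipid synthesis. All 31 were found among the 52029 genes of the table that holds 4 libraries and in the separate table of a further library. Hepatobiliary organoids are epithelial cultures, here of primary wild-type liver stem/progenitor cells. The organoids alone (2 libraries, M11 and M12) were at passage 1 with no treatment named, and the co-cultures with liver endothelial cells (3 libraries, M9, M10 and the third one, which has no such number) were at passage 8. All were taken at day 10, and all shared an advanced DMEM medium that held EGF, the ROCK inhibitor Y-27632, nicotinamide, heparin, ECGS, Knock-out serum replacement, HEPES, GlutaMAX and antibiotics. The labels do not say whether the endothelial cells were removed before RNA was taken. Culture and passage differ together between the groups and cannot be told apart. Nothing in the labels says whether libraries of a group were separate cultures, so the p-values speak only of how far these libraries spread, which may be technical.

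SREBPs are transcription factors made as membrane proteins of the endoplasmic reticulum. Scap carries them to the Golgi when sterols are scarce, where the proteases Mbtps1 and Mbtps2 release the active part, and Insig proteins hold Scap back when sterols are plentiful. The Srebf2 product mainly drives sterol enzymes and sterol uptake, and the Srebf1 product mainly drives fatty acid enzymes. In liver, both arms supply membranes and lipoproteins, and sterol also feeds bile acid synthesis in hepatocytes.

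The libraries M11, M12, M9 and M10 held between 26466739 and 35878241 counts, and the third co-culture library held 58853737 in a table of other gene models. All 9 biliary and progenitor epithelial markers were detected in each library, and they summed to 13930 and 18010 CPM (counts per 1000000 of total counts) alone, 27710 (M9), 22500 (M10) and 11760 CPM (the third library). This sum was above the organoids alone for M9 and M10 and lowest in the third library, but its members did not all share that order. Krt8, the member with the most counts, was at 3881 and 5653 CPM alone, scaled over all 5 libraries. On that scale it was at 10850 (M9), 7936 (M10) and 2736 CPM (the third library). Prom1 (940 CPM) and Cdh1 (1624 CPM) were instead highest in the third library. Of the 9, Krt7 (adjusted p = 0.0303, edgeR), Krt19 (0.0436) and Prom1 (0.0264) rose between M11 and M12 and M9 and M10, with log2 fold changes of 1.11, 1.15 and 1.19. In the third library, on the scale over 5 libraries, Krt7 (819 CPM) and Krt19 (1278 CPM) were below both libraries alone. Prom1 was above both there. None of the 9 was called lower between M11 and M12 and M9 and M10, but the fold change was positive for 6 and negative for 3. Spp1, among the negative ones, was at 2001 and 2726 CPM alone, against 1102 (M9) and 635 CPM (M10). Its log2 fold change was -1.44 (adjusted p = 0.0825, edgeR). The 13 endothelial markers summed to 8.39 and 8.32 CPM without co-culture (M11, M12) and with it to 10.5 (M9), 9.84 (M10) and 7.27 CPM (the third co-culture library). Egfl7 made up most of these sums, at 182 and 212 counts alone, 312 (M9), 323 (M10) and 318 counts (the third library); its groups did not overlap between M11 and M12 and M9 and M10 (adjusted p = 0.518, edgeR). Stab1 had between 12.02 and 63 counts per library, and each of the other 11 markers had at most 19. Emcn and Erg were at 0 in every co-culture library. The 6 hepatocyte markers summed to 55.8 and 93.9 CPM alone, and in co-culture to 55.7 (M9), 105.3 (M10) and 299 CPM (the third library). These sums join members of opposite direction. Alb fell, from 16.2 and 50.5 CPM alone to 0.148 (M9) and 0.257 CPM (M10) (adjusted p = 0.0186), and was at 64.5 CPM in the third library. Ttr was at 37.6 and 42.7 CPM alone, then 55.2 (M9) and 106.3 CPM (M10) (adjusted p = 0.188), and at 225 CPM in the third library. The 7 mesenchymal markers, of which Lum was at 0 in M12 and in all 3 co-culture libraries, summed to 26.1 and 77.7 CPM alone, and in co-culture to 1.77, 2.68 and 7.92 CPM in the same order, and of them Col3a1 (adjusted p = 0.0371) and Rgs5 (0.0354) fell. The 4 adipocyte markers summed to between 0.272 CPM (the third library) and 1.67 CPM (M10), with Adipoq at 0 in 4 of the 5 libraries. The part of these markers in the results below was not tested. In bulk RNA, fewer cells of a type and less RNA per cell cannot be told apart.

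Promoter sequence is shown first, because SREBPs act by binding a sterol response element in the promoters of their targets, often beside NF-Y and Sp1 boxes. RefSeq promoter windows (GRCm38.p6) were matched by symbol for 24 of the 31 genes. Scd1, Scd2, Fads1, Fdps, Sqle, Fdft1 and Stard4 had no matched window and were not searched. In the 250 bases before the start, the element TCACNCCA, searched on both strands, was found for 4 of the 24 genes, against 4.2% of the 27025 genes of the table. The 4 genes were Hmgcs1, Msmo1, Srebf2 and Gpam. Stretches of 60 bases around the match are given for 3 of them, on the strand of the gene, with the match in capitals. They lie at chr13:119690188-119690247 (plus strand) for Hmgcs1, chr15:82147081-82147140 (plus strand) for Srebf2 and chr19:55127370-55127429 (minus strand) for Gpam.
Hmgcs1: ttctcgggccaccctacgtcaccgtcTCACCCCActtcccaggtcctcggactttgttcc
Srebf2: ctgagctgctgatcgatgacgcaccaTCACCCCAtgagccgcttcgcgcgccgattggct
Gpam: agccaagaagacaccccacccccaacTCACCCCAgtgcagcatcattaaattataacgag
The match begins 137 bases before the start of Hmgcs1, 162 before that of Srebf2 and 165 before that of Gpam. The stretch of Srebf2 also holds 1 NF-Y box (CCAAT, read on the other strand), and that of Hmgcs1 and of Gpam holds none. The stretch of Msmo1, not printed here, holds 1 as well. Over the whole window the NF-Y box was present for 19 of the 24 genes, against 37.5% of all genes of the table. It was present for all 11 sterol enzymes with a window and for 5 of the 9 fatty acid genes. The Sp1 box GGGCGG was present for 19 of the 24 genes, against 35.4% of all. These matches are letters in a window and show no binding.

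None of the 31 genes passed the test between co-culture (M9 and M10) and organoids alone (M11 and M12). Of 15899 genes tested with edgeR's quasi-likelihood test, 356 were called at a Benjamini-Hochberg adjusted p under 0.05, which is 2.24% (0.994% higher and 1.25% lower in co-culture). All 31 genes passed the low-count filter. At an unadjusted p under 0.05, 6 of them were higher in co-culture and 0 lower, against 8.42% and 9.06% of all genes. These 6 were Scd1, Nsdhl, Me1, Sqle, Scd2 and Srebf2. The fitted log2 fold change was positive for 26 of the 31 genes, against 50.1% of all genes, and its median was 0.27, against 0.00 over all genes. Limma-voom also called 0 of the 31 (1.81% of all genes in either direction), whereas DESeq2 called 4 higher (3.98% of all higher), namely Scd1, Scd2, Me1 and Nsdhl. Without a low-count filter edgeR called 4 higher (2.34% of all higher), Scd1, Me1, Nsdhl and Sqle.

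The co-culture libraries M9 and M10 differed from each other in this gene set, and that spread enters each test. M10 was above M9 for 28 of the 31 genes, against 49.5% of all genes tested. It was at least 1.5-fold above M9 for 10 of the 31, against 16.1% of all. The median log2 ratio of M10 to M9 was 0.41 over the 31 genes and 0.00069 over all genes. Without M9, edgeR called 13 of the 31 higher (7.74% of all genes higher) and 0 lower. Without M10 it called 2 higher, Scd1 and Nsdhl (2.96% of all), and 1 lower, Fads1 (3.72% of all). In these fits the lone co-culture library is assumed to vary like the pair alone. Without M11 or without M12 it called none of the 31, but these fits called few genes of any kind (0.292% and 0.0%).

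**Figure D1:**
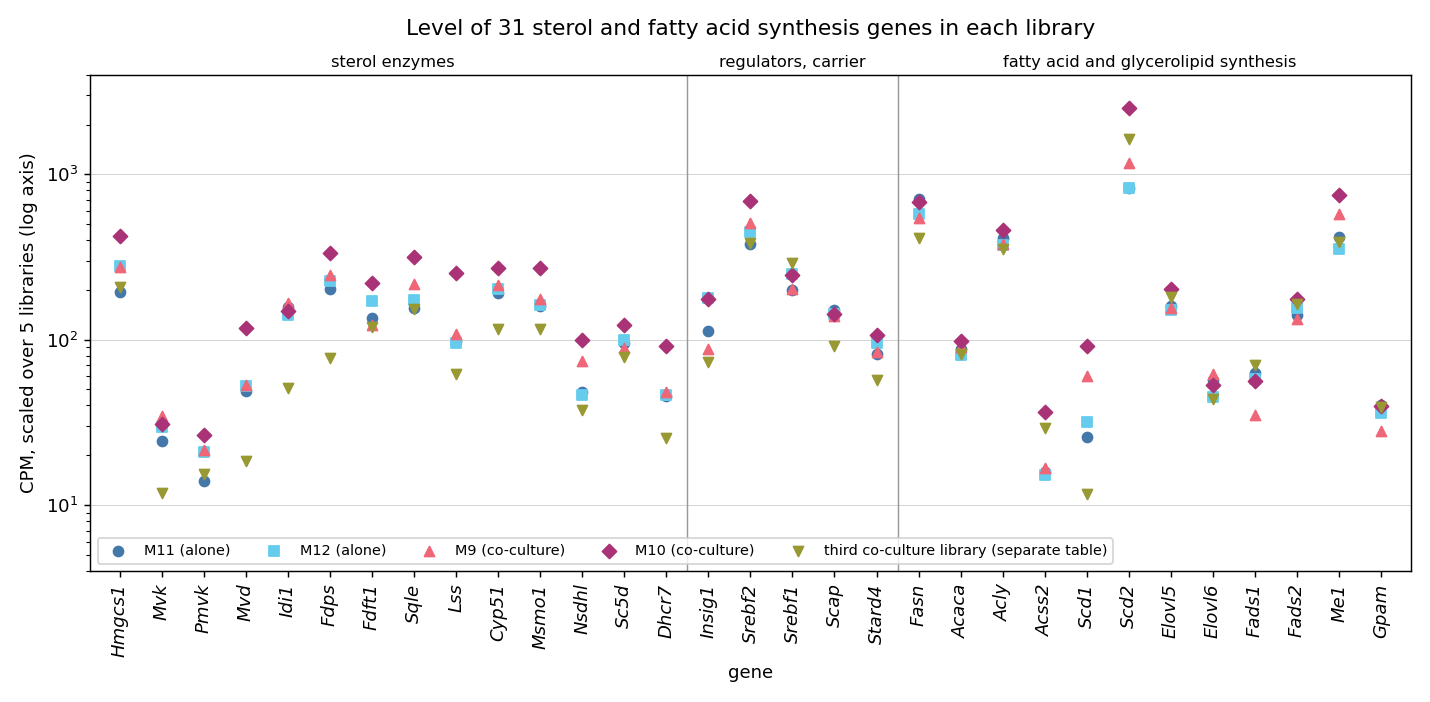
Level of each of the 31 genes in each library, in CPM scaled over all 5 libraries on a log axis, grouped by role; each point is 1 library. M10 lies above the other libraries for most sterol enzymes, and Scd2 is the gene with the most counts, at 2521 CPM in M10.

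The sterol enzymes make cholesterol from acetyl-CoA by way of mevalonate, isoprenoid diphosphates, squalene and lanosterol. All 14 had a positive fold change under each of the 3 scalings tried, none passed the test, and their median log2 fold change was 0.46. In 10 of the 14, M9 and M10 both lay above M11 and M12, against 24.3% of all genes. In 12 of the 14, M10 was the highest of the 4 libraries, against 30.8% of all genes. M10 was at least 1.5-fold above M9 for 6 of them: Hmgcs1, Mvd, Fdft1, Lss, Msmo1 and Dhcr7.

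Hmgcs1, which condenses acetyl-CoA units into the mevalonate precursor, was at 188 and 273 CPM alone, against 268 and 410.5 CPM for M9 and M10 (CPM scaled by the trimmed mean of M-values). Its groups overlapped, and its log2 fold change was 0.56 with a standard error (SE) of 0.28 (adjusted p = 0.384, edgeR). Mvk, the first kinase of mevalonate, was at 23.6, 28.8, 33.6 and 29.6 CPM in M11, M12, M9 and M10, and Pmvk, the next kinase, was at 13.5, 20.3, 20.9 and 25.5 CPM. Both had M9 and M10 above the organoids alone, by margins smaller than the gap between M11 and M12. Mvd, the decarboxylase that makes isopentenyl diphosphate, was at 47.2 and 51.4 CPM alone, against 52.0 and 113 CPM for M9 and M10. M9 thus lay next to M12 while M10 was 2.17-fold above M9, and the log2 fold change was 0.74 ± 0.36 (SE; adjusted p = 0.369, edgeR).

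Idi1, an isomerase of isopentenyl diphosphate, was at 154, 138, 163 and 144 CPM in M11, M12, M9 and M10, with groups that overlapped. Fdps, which makes farnesyl diphosphate, was at 196 and 221 CPM alone, against 242 and 320 CPM for M9 and M10 (0.43 ± 0.19 on the log2 scale, SE; adjusted p = 0.324, edgeR). Of the 50-base stretches of Fdps transcripts in GENCODE M21, 26.2% also occur in transcripts of other genes, and for Idi1 17.7% do, so their counts are uncertain. Fdft1, or squalene synthase, was at 131, 168, 120 and 212 CPM, so that M9 was the lowest and M10 the highest of the 4.

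Sqle, the squalene epoxidase and a rate-limiting step of the pathway, was at 151 and 170 CPM alone, against 214 and 304 CPM for M9 and M10. Both co-culture libraries lay above both libraries alone, and the log2 fold change was 0.69 ± 0.21 (SE; adjusted p = 0.177, edgeR). Lss, which closes squalene epoxide into lanosterol, was at 94.7 and 92.4 CPM alone, against 106 and 245 CPM for M9 and M10. It had the highest ratio of M10 to M9 among the 31 genes, 2.32, and a log2 fold change of 0.91 ± 0.38 (adjusted p = 0.299); this was 1.40 without M9 and 0.18 without M10.

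Of the 5 enzymes after lanosterol, each was highest in M10. Cyp51, the lanosterol demethylase, was at 186, 197, 209.5 and 261 CPM in M11, M12, M9 and M10, and Msmo1, a sterol methyl oxidase, at 155, 158.5, 172 and 262 CPM. Nsdhl, a decarboxylating sterol dehydrogenase, was at 46.7 and 45.0 CPM alone, against 72.4 and 96.1 CPM for M9 and M10. It was the sterol enzyme with the smallest adjusted p, at 0.0853 (edgeR; log2 fold change 0.88 ± 0.19, SE), and it was called without M9 (1.08) and without M10 (0.66), and not without M11 (0.91) or M12 (0.85). Nsdhl (ENSMUSG00000031349) lies on chromosome X (plus strand, GRCm38) from 72918557 to 72958514, with no overlapping gene. Sc5d, a sterol desaturase, was at 92.5, 96.8, 87.4 and 118 CPM with groups that overlapped, and Dhcr7, which reduces 7-dehydrocholesterol, at 44.4, 45.1, 47.5 and 88.0 CPM. Dhcr7 in M9 was 1.06-fold the mean of the organoids alone, and M10 was 1.85-fold above M9.

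None of the 5 regulators and carriers passed, 3 of their fold changes were positive, and the median was 0.01. Srebf2 was at 365.5 and 438 CPM alone, against 497 and 668 CPM for M9 and M10, with no overlap between groups. Its log2 fold change was 0.54 ± 0.20 (SE; adjusted p = 0.253, edgeR). Srebf1 was at 194, 242, 199 and 238 CPM in M11, M12, M9 and M10, with a log2 fold change of 0.01 ± 0.18 (adjusted p = 0.993), which was -0.035 with scaling by total counts. Scap was at 146.5, 139.9, 136.4 and 136.9 CPM, both co-culture libraries below both alone (a pattern of 25.1% of all genes), at 0.954 of the level alone. Insig1, itself a classical SREBP target that restrains the pathway, was at 109.5 and 173 CPM alone, against 85.45 and 169.6 CPM for M9 and M10. Its libraries differed more within each group than the groups did, with M10 1.98-fold above M9 and M12 1.58-fold above M11 (log2 fold change -0.15 ± 0.37, adjusted p = 0.886). Stard4, a carrier of sterol between membranes, was at 79.4, 93.6, 82.9 and 103 CPM.

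The fatty acid arm starts from citrate and acetate. None of its 12 genes passed the test, 9 of the fold changes were positive, and the median was 0.16. M9 and M10 both lay above the organoids alone for 5 of the 12 (24.3% of all genes) and below for 1 (25.1%). M10 was at least 1.5-fold above M9 for 3, Acss2, Scd2 and Fads1 (16.1% of all genes). The groups of Acly and Fasn, core enzymes, overlapped. Acly, which splits citrate to acetyl-CoA, was at 401, 366, 373 and 444 CPM in M11, M12, M9 and M10. Acaca, the carboxylase that makes malonyl-CoA, was at 85.3, 78.5, 88.2 and 94.6 CPM, although 30.4% of its 50-base stretches are shared with other genes' transcripts. Fasn, the fatty acid synthase, was at 683, 559.5, 534.5 and 655 CPM, a log2 fold change of -0.06 ± 0.18 (adjusted p = 0.903, edgeR).

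The members of this arm with the smallest p were the stearoyl-CoA desaturases Scd1 and Scd2, which make monounsaturated fatty acids, and the malic enzyme Me1, which makes NADPH. Scd1 was at 25.0 and 30.8 CPM alone, against 58.7 and 88.0 CPM for M9 and M10, 27.9 ± 4.05 against 73.4 ± 20.7 CPM (SD, n = 2 each). The groups did not overlap, and the log2 fold change of 1.39 ± 0.25 (SE) was the largest of the 31, with an adjusted p of 0.0559 by edgeR, just short of the threshold. It was called without M9 (1.67) and without M10 (1.08), and not without M11 (1.26) or M12 (1.55). Scd2 was at 801.5 and 804 CPM alone, against 1141 and 2428 CPM for M9 and M10, so that M10 was 2.13-fold above M9. Its log2 fold change was 1.15 ± 0.35 (adjusted p = 0.177), or 1.61 without M9 and 0.51 without M10. Both lie on chromosome 19 in GRCm38, Scd1 (ENSMUSG00000037071) from 44394455 to 44407879 on the minus strand and Scd2 (ENSMUSG00000025203) from 44293674 to 44306864 on the plus strand. They share part of their sequence: 4.56% of the 50-base stretches of Scd1 and 3.97% of those of Scd2 occur in transcripts of other genes (Scd3 and Scd4 among them). How the authors' counting treated such reads is not given in the sources used here, and their values are uncertain to that extent. Me1 was at 407 and 344 CPM alone, against 562 and 718 CPM for M9 and M10, and its log2 fold change was 0.77 ± 0.19 (adjusted p = 0.113). Of its 50-base stretches, 22.9% occur in transcripts of other genes.

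Acss2, which makes acetyl-CoA from acetate, was at 15.3 and 14.7 CPM alone, against 16.4 and 35.3 CPM for M9 and M10. As for Lss and Mvd, only M10 stood clearly apart, and the log2 fold change was 0.78 ± 0.38 (SE; adjusted p = 0.367, edgeR). The elongases Elovl5 and Elovl6 had overlapping groups, Elovl5 at 156, 148, 153 and 196 CPM in M11, M12, M9 and M10, and Elovl6 at 55.4, 44.1, 60.5 and 51.4 CPM. Fads1 and Fads2, the desaturases of polyunsaturated fatty acids, had fold changes of opposite sign, and neither passed. Fads1 was at 60.8 and 56.0 CPM alone, against 34.1 and 54.3 CPM for M9 and M10 (-0.40 ± 0.25, adjusted p = 0.489), or -0.77 without M10, where it was called. Fads2 was at 137, 152, 131 and 170 CPM. Gpam, which starts glycerolipid synthesis, was at 39.0, 35.3, 27.5 and 38.4 CPM, M9 being the lowest.

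Levels of different genes were compared per length, as CPM per kilobase of merged exons of the gene in GENCODE M21, computed here from the counts. In the organoids alone Scd2 was the highest of the 31, at 146.7 and 147.2 CPM per kilobase in M11 and M12. Me1 came next (106 and 89.3), then Acly (75.9 and 69.4), and their values did not overlap those of Scd2. Fasn (62.4 and 51.1), Srebf2 (50.9 and 60.9), Hmgcs1 (41.0 and 59.5) and Fdps (46.5 and 52.6) followed, with overlapping values for each pair of neighbours. The lowest was Acss2 (1.503 and 1.447), below Acaca (5.00 and 4.60), Gpam (5.85 and 5.30) and Scd1 (5.12 and 6.29), of which the last pair overlapped. Per length, Scd2 exceeded Scd1 in each of the 4 libraries, at 444 against 18.0 CPM per kilobase in M10. The order depends on the length used: per kilobase of the longest coding transcript, Fdps led at 142 and 160 and overlapped Scd2 at 146.9 and 147.4.

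The sterol enzymes had lower values in the third co-culture library than on average in the organoids alone. That library comes from a separate table with RefSeq genes, has no replicate there and was not tested. The library number in its column header differs from the one in the name under which it was deposited, and its group rests on the series' own record of that deposit. For it, CPM were scaled over all 5 libraries on genes joined by symbol, and differences are from the average log2 CPM of the organoids alone, which also serve the comparison above. All 14 lay below that mean (49.6% of all genes lay above it), with a median log2 difference of -0.56, against -0.01 over all genes. On that scale the medians of M9 and M10 were 0.16 and 0.69. In 12 of the 14 the third library was below both libraries alone, against 45.3% of all genes, and it was the lowest of all 5 in 12, against 33.1%. It was at least 2-fold lower for 4 sterol enzymes (17.6% of all genes). These were Idi1 (51.2 CPM, -1.55), Fdps (77.1 CPM, -1.47), Mvd (18.5 CPM, -1.45) and Mvk (11.8 CPM, -1.18). The tables count different gene models, and Fdps and Idi1 share stretches with other genes: their part in these gaps between tables was not tested. The hepatocyte markers, at their highest sum in this library, were likewise not tested for their part in it.

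The summed CPM of the 14 sterol enzymes shows the order of libraries: 1571 and 1751 (M11 and M12), then 1848 (M9), 2730 (M10) and 1090 (the third co-culture library). The range of the 3 co-culture libraries thus held both libraries alone.

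**Figure D2:**
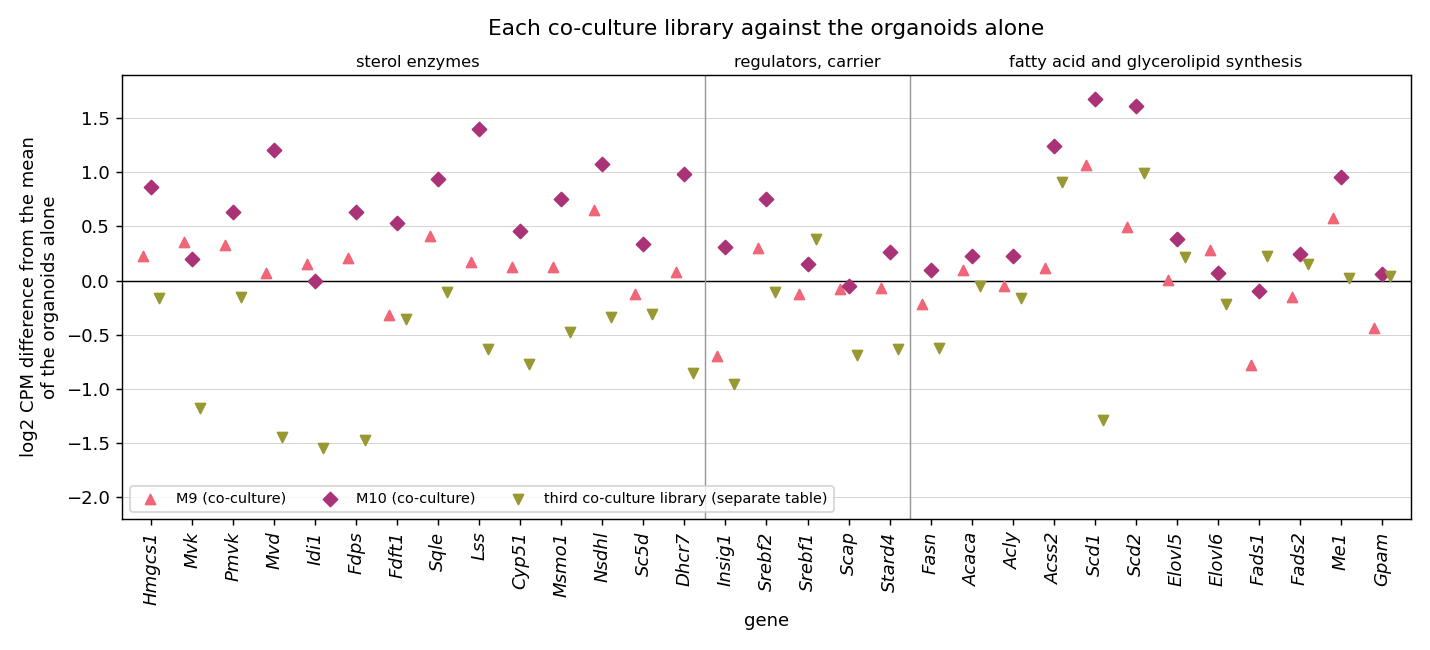
Log2 CPM difference of each co-culture library from the mean of M11 and M12, for each of the 31 genes; each point is 1 library and 0 is the level of the organoids alone. All 14 sterol enzymes are below 0 in the third co-culture library, and 13 of the 14 are above 0 in M10.

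The fatty acid genes of the third library were split. It lay above the mean of the organoids alone for 7 of the 12 genes, and the median log2 difference was 0.03, against 0.05 (M9) and 0.24 (M10). It was above both libraries alone for 5 (43.6% of all genes), Scd2, Acss2, Fads1, Fads2 and Elovl5. No member was at least 2-fold higher there (14.5% of all genes); Scd2 came nearest at 0.99 (1640 CPM), followed by Acss2 at 0.91 (29.1 CPM). Scd1 went the other way from Scd2, at 11.7 CPM and a log2 difference of -1.29, and below all 4 other libraries. Fasn was lower as well, at 412 CPM (-0.63), and Me1 was at 391 CPM, between M11 and M12. Among the regulators, Srebf1 was at 292 CPM and above both libraries alone (0.39), Srebf2 at 383 CPM between them, and Insig1 (-0.95), Scap (-0.69) and Stard4 (-0.63) below both.

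All 3 co-culture libraries lay above both libraries alone for 2 of the 31 genes, Scd2 and Acss2, against 15.1% of all genes. They lay below for 1, Scap, against 16.9%. With all 5 libraries in 1 fit, edgeR called 0 of the 31 genes and 2 of all genes (0.0136%), and the median log2 fold change of the 31 was 0.095.

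**Figure D3:**
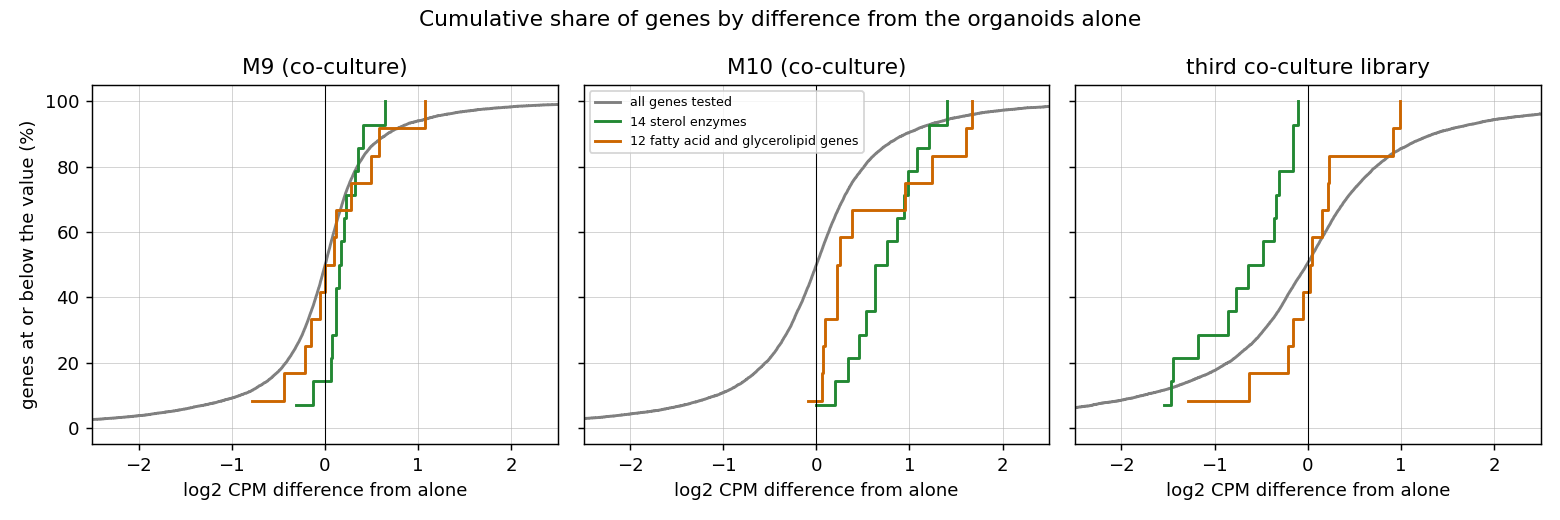
Cumulative share of genes by log2 CPM difference from the organoids alone, 1 panel per co-culture library; lines are all genes tested, the 14 sterol enzymes and the 12 fatty acid and glycerolipid genes. The sterol line lies to the right of all genes in M10 (median 0.69) and to the left in the third library (median -0.56).

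Other genes of the pathway were read from lists beside the 31. Of 6 other sterol synthesis genes tested, 1 was called higher and 0 lower (0.994% and 1.25% of all genes). The fold change was positive for 3 of them and negative for 3. At an unadjusted p under 0.05 (edgeR), 3 were higher and 1 lower. The lower one, Hsd17b7, was at 37.2 and 45.3 CPM alone, against 30.8 (M9) and 26.6 CPM (M10) (adjusted p = 0.249). The gene called was Ebp, the sterol isomerase, which rose from 53.8 and 54.6 CPM alone to 98.1 CPM (M9) and 96.9 CPM (M10). Its log2 fold change was 0.85 ± 0.14 (SE; adjusted p = 0.0495, edgeR), with M9 and M10 level, unlike Lss or Mvd. Of 11 genes of sterol transport, storage and oxysterols, 1 was called higher and 0 lower. At an unadjusted p under 0.05 (edgeR), 3 were higher and 2 lower (8.42% and 9.06% of all genes). The one called was Soat1, which esterifies cholesterol for storage. It rose from 35.2 and 29.6 CPM to 68.3 and 65.5 CPM (1.05 ± 0.17, adjusted p = 0.0466). Stard3 (log2 fold change 0.69, adjusted p = 0.0954, edgeR) and Soat2 (1.20, adjusted p = 0.145) were also higher and did not pass. Both lay above both libraries alone in the third library (76.0 and 16.3 CPM), and both are named after their values were seen. Npc1 of this list, which exports sterol from lysosomes and is named here after its values were seen, was at 118 and 151 CPM alone, against 59.3 and 70.3 CPM for M9 and M10. It did not pass (-1.05 ± 0.19, adjusted p = 0.0562), and it was at 51.5 CPM in the third library.

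Both calls sat close to the threshold and depended on the setting. Both genes were also called by DESeq2, by edgeR with DESeq2 size factors, and with no low-count filter or a stricter one. Without M9 and without M10 the log2 fold changes were 0.85 and 0.86 for Ebp and 1.03 and 1.08 for Soat1. Ebp and Soat1 were not called by limma-voom or with scaling by total counts, and neither was called with all 5 libraries (log2 fold changes of 0.57 and 0.69). Nor was either called in the fits without M11 or M12, which called 50 and 0 of all genes, with folds of 0.84 and 0.86 for Ebp and 1.18 and 0.93 for Soat1. In the third co-culture library Ebp (47.5 CPM, -0.23) and Soat1 (23.7 CPM, -0.49) were below the organoids alone. Of the other lists given here, 0 were called by edgeR of 9 genes of SREBP processing, 6 of the liver X receptor and efflux, 18 of other fatty acid and glycerolipid synthesis and 4 of NADPH supply. At an unadjusted p under 0.05 (8.42% of all genes higher and 9.06% lower), the first list held 0 genes, the second 1 higher and 1 lower, the third 3 higher and 3 lower, and the fourth 0 higher and 2 lower.

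The genes with the smallest p in these lists, none of which passed, are given by role. For SREBP processing they included Insig2, the other Insig protein, at 38.7 and 34.2 CPM alone, against 42.3 and 53.4 CPM for M9 and M10 (adjusted p = 0.378, edgeR), and Erlin2, which helps degrade sterol-regulated membrane proteins, at 143 and 136 CPM against 155 and 199 CPM (adjusted p = 0.395). The median log2 fold change of the 9 genes was 0.02. Abca1, a sterol exporter, was at 5.25 and 21.1 CPM alone, against 2.11 and 0.571 CPM for M9 and M10 (adjusted p = 0.138), and at 25.0 CPM in the third library. Its libraries alone differed 4.02-fold, and the third library lay above both. Lpcat3, a phospholipid acyltransferase, was at 102 and 110.4 CPM against 141 and 149 CPM (adjusted p = 0.194), and the liver X receptor gene Nr1h2 was at 87.9 and 107.5 CPM against 119.5 and 144.5 CPM (adjusted p = 0.298).

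Among the other fatty acid genes, the acyl-CoA synthetases, which activate fatty acids, had opposite signs. Acsl4 was at 231 and 221 CPM alone, against 163 and 148 CPM for M9 and M10 (log2 fold change -0.54, adjusted p = 0.141, edgeR). Acsl5 was at 223 and 228 CPM against 323 and 308 CPM (0.48, adjusted p = 0.161). Elovl1, an elongase of saturated acids, was at 105 and 117 CPM against 85.9 and 66.5 CPM (-0.54, adjusted p = 0.211). M9 and M10 lay close together for Acsl4 and Acsl5, and their groups did not overlap. In the third co-culture library Acsl4 (306 CPM), Acsl5 (277 CPM) and Elovl1 (125 CPM) were each above both libraries alone. For Acsl4 and Elovl1 this was the other direction from M9 and M10. For NADPH supply, which both arms need, Pgd of the pentose phosphate pathway was at 306 and 389 CPM against 269 and 201.5 CPM (-0.56, adjusted p = 0.249). The mitochondrial malic enzyme Me2 was at 44.2 and 39.0 CPM against 30.4 and 29.1 CPM (-0.49, adjusted p = 0.232), the other sign from the cytosolic Me1, and the difference between the 2 genes was not tested.

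**Figure D4:**
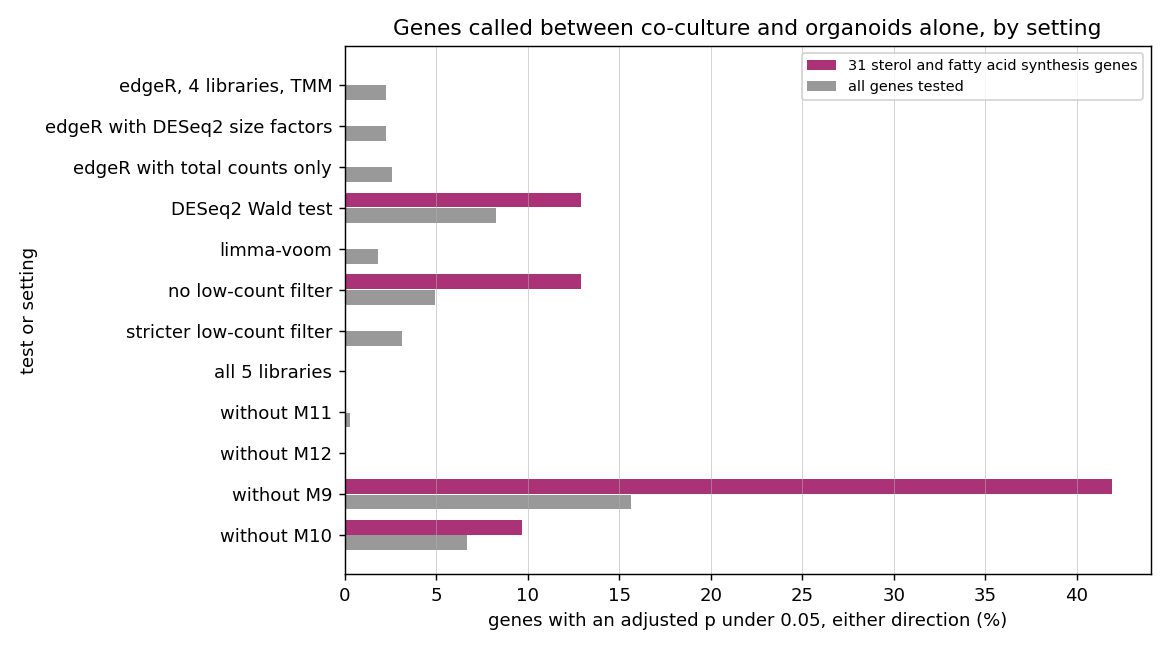
Share of genes with an adjusted p under 0.05 in either direction, for the 31 genes (purple) and for all genes tested (grey), by test or setting on the horizontal bars. The 31 genes are at 0 in 8 of the 12 settings, and their largest number, 13 genes, was called without M9.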

How the data were processed

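RNA was prepared as TruSeq stranded libraries after removal of ribosomal RNA (labels' protocols). HISAT2 (2.1.0), StringTie (2.1.3b), Trimmomatic (0.38), Bowtie2 (2.3.4.1) and FastQC (0.11.7) are listed without roles, per the submitters' processing notes; what counted the reads, and with which strand setting and annotation, is not given in the sources used here. Of the 31 genes, 13 overlap a gene on the other strand in GENCODE M21, and whether counting separated the reads of such pairs is unknown. The authors deposited estimated counts per Ensembl gene for 4 libraries and whole-number counts per RefSeq gene for the third co-culture library, per the file headers. Rows repeated for a gene held identical counts, and 1 was kept; estimated counts were rounded. A column of the shared table shows its group but not its sample.

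The 4 libraries were fitted with edgeR (4.0.16, R 4.3.3): filterByExpr, scaling by the trimmed mean of M-values (TMM), robust quasi-likelihood test, and Benjamini-Hochberg adjustment at 0.05 over 15899 genes. The SE is the absolute log2 fold change over the square root of F. The third library was joined by symbol (30844 genes with 97.7% of its counts), and log2 CPM had a prior count of 2. Alternatives were DESeq2 (1.42.0), limma-voom (limma 3.58.1), other scalings and filters, a fit without each library, and a fit of all 5. The tests were first tried on simulated counts. The 31 genes and the other lists were chosen with earlier results of these data known. All 31 are named; from the other lists and markers given, genes that were called are named, with examples of the smallest p. A list of fatty acid oxidation is not reported here.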

Additional observations from a re-analysis of the deposited data

How the results depend on the processing

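The count of all genes called, 356 by edgeR on 4 libraries, was 1314 with DESeq2, 1404 without a low-count filter and 2 with all 5 libraries, and between 0 and 2619 when single libraries were left out. The number of the 31 genes called, 0, was 4 with DESeq2 and 4 without a filter, and between 0 and 13 when single libraries were left out (13 without M9, 3 without M10). It was 0 with both other scalings, limma-voom, the stricter filter and all 5 libraries. The median log2 fold change over the 31, 0.27, was 0.095 with all 5 libraries and between 0.13 and 0.46 when single libraries were left out. With all 5 libraries the sign turned for Mvk (-0.074), Idi1 (-0.29), Sc5d (-0.0060) and Stard4 (-0.10), and with total counts for Srebf1 (-0.035). When single libraries were left out, the sign also turned for genes with a small log2 fold change on 4 libraries. These fold changes lay between -0.17 (Gpam) and 0.15 (Fdft1), a span in which only Scap kept its sign (-0.10 to -0.027). For some genes whose sign turned the range was wide. The ranges were -0.0085 to 0.16 for Idi1, -0.31 to 0.52 for Fdft1, -0.11 to 0.34 for Sc5d, -0.72 to 0.28 for Insig1, -0.14 to 0.17 for Srebf1 and -0.0575 to 0.26 for Stard4. They were -0.21 to 0.10 for Fasn, -0.037 to 0.22 for Acly, -0.14 to 0.25 for Fads2 and -0.43 to 0.059 for Gpam. The causes were not tested. The motif counts were the same or 1 higher (NF-Y, 20) in the window that runs 50 bases past the start. No paired analysis was possible because the columns carry library numbers and not the replicate numbers of the titles. The authors' per-length values were not used, so the planned change between them was not run. The highest level per kilobase in the organoids alone, 146.9 (Scd2) over merged exons, was 150.9 (Fdps) over the longest coding transcript, an alternative added after the data were seen.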
